A study of Homo sapiens with 12 samples.

Results

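Chromosomes 2, 14 and 16 were described as they appear in 4 ChIP-seq interval lists, 2 from HepG2 and 2 from Huh7, a pair of established human liver cancer cell lines. An interval is a stretch in which a peak caller found more ChIP fragments than expected from input, the sonicated chromatin kept aside before immunoprecipitation. All intervals with their summit on these 3 chromosomes were taken, 34766 of the 164693 in the 4 lists. They numbered 20014 of 83156 in HepG2 anti-HOXA13, 8814 of 40657 in HepG2 anti-HA, 1523 of 10710 in Huh7 anti-HOXA13 and 4415 of 30170 in Huh7 anti-HA. The chromosomes had been chosen by their density of intervals in these HepG2 lists, so the densities below are a description and no test was made on them.

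The anti-HOXA13 libraries came from untagged HepG2 and Huh7 cells, and the anti-HA libraries from cells of the same lines carrying HOXA13 with an HA tag. The labels mention stable transfection, and do not give the promoter of the tagged gene or whether the cells were a clone or a pool. Each of the 4 cell populations gave an antibody ChIP, an input and a mouse IgG ChIP, 12 libraries in all, of which the IgG ChIPs were not analysed here. Each list rests on 1 ChIP library, so no difference between lists has a replicate check, no test between conditions was possible, and every interval of error given here covers counting error only. The lists give no read totals, and the cell line labels could not be set against marker genes, because no gene annotation of the build of the files was used here.

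HOXA13 is a homeodomain transcription factor best known from limb and urogenital development, and an anti-HA antibody pulls down the tagged copy of it through the epitope. The peak caller asks at each position whether the ChIP pileup, the number of overlapping fragments, exceeds the pileup expected from input and from the genome-wide background. Sequence that is present in more copies, or that is collapsed in the reference, contributes more fragments to ChIP and input alike. HepG2 is known as a line with extra copies of several chromosomes; copy number was not measured in these files and its part in the densities below was not tested. Among the 3 chromosomes, number 14 is acrocentric, with a short arm that the reference leaves almost unsequenced, and number 16 carries long duplicated blocks on its short arm and a block of heterochromatin beside the centromere on its long arm.

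In HepG2, all 3 chromosomes held more intervals per Mb than the median of the 22 autosomes with both antibodies. Density was counted over the 1 Mb bins that held a summit in any list, which gave 242 Mb on chromosome 2, 89 Mb on chromosome 14 and 81 Mb on chromosome 16. In HepG2 anti-HOXA13, where the median autosome held 20.7 intervals per Mb, chromosome 2 held 47.9 per Mb, 2.32 times the median autosome (95% Poisson interval 2.27 to 2.36). Chromosome 14 held 35.1 per Mb, 1.70 times (1.64 to 1.76), and chromosome 16 held 65.5 per Mb, 3.17 times (3.08 to 3.25). In HepG2 anti-HA, with 9.57 per Mb on the median autosome, the same chromosomes held 23.3, 15.7 and 21.9 per Mb, or 2.43 times (2.37 to 2.50), 1.64 times (1.55 to 1.73) and 2.29 times (2.19 to 2.40). Of the 22 autosomes, they ranked 3, 5 and 2 by the HOXA13 antibody and 2, 5 and 3 by the HA antibody.

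In Huh7 the same chromosomes lay near the median autosome. Chromosome 2 stood slightly above it, at 1.16 times (1.09 to 1.23) in anti-HOXA13 and 1.14 times (1.10 to 1.18) in anti-HA. Chromosomes 14 and 16 stood below it, at 0.791 (0.697 to 0.894) and 0.862 (0.759 to 0.975) in anti-HOXA13 and at 0.824 (0.767 to 0.884) and 0.834 (0.774 to 0.898) in anti-HA. Among intervals with q of 0.05 or lower, chromosome 16 no longer stood below: the ratio was 1.01 (0.669 to 1.48) in anti-HOXA13 and 1.56 (1.24 to 1.93) in anti-HA. The latter came from 82 intervals, of which 53 lay outside the bin from 46000001 to 47000000. That bin borders the longest stretch of chromosome 16 without an interval in any list. The ratio without it was not computed, so an excess over the rest of the chromosome is not shown. For each of the 3 chromosomes, both HepG2 ratios over all intervals exceeded both Huh7 ratios.

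**Figure D1:**
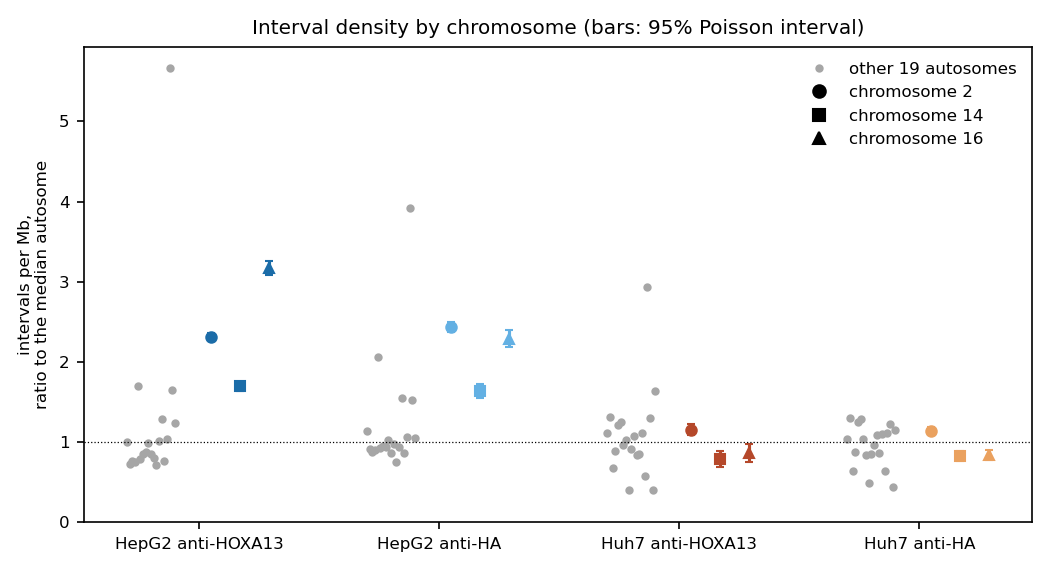
Intervals per covered Mb on each autosome, divided by the value of the median autosome, for the 4 lists (x axis). Coloured symbols are chromosomes 2, 14 and 16 with 95% Poisson intervals and grey points the other 19 autosomes; in both HepG2 lists the 3 chromosomes sit between 1.64 and 3.17, and in both Huh7 lists between 0.791 and 1.16.

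Most of these intervals were weak. Intervals with q of 0.05 or lower made up 9.9% of all autosomal intervals in HepG2 anti-HOXA13, and 9.85% (9.32 to 10.4%, exact binomial interval) on chromosome 2, 8.91% (7.93 to 9.96%) on chromosome 14 and 11.99% (11.1 to 12.9%) on chromosome 16. In HepG2 anti-HA the autosomal share was 50.6%, and the 3 chromosomes lay below it, at 39.1% (37.8 to 40.4%), 47.4% (44.7 to 50.0%) and 42.1% (39.8 to 44.5%). In Huh7 anti-HOXA13, against 9.37% of all autosomal intervals, the shares were 6.70%, 10.2% and 10.7%. In Huh7 anti-HA, against 6.61%, they were 4.99%, 6.19% and 11.5%, and the value on chromosome 16 (9.23 to 14.03%) was the only one of these 3 above the autosomal share. Without 1 bin beside the longest interval-free stretch of chromosome 16, from 46000001 to 47000000, it was 8.02% (6.06 to 10.4%).

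The excess over the median autosome depended on strength in HepG2 anti-HA. Among intervals with q above 0.05 the ratios were 3.53 (3.41 to 3.65) on chromosome 2, 2.05 (1.91 to 2.21) on chromosome 14 and 3.16 (2.97 to 3.36) on chromosome 16. Strong intervals, those with −log10 q of 5 or more, made up 21.2% of autosomal HepG2 anti-HA intervals, and the 811, 242 and 304 on the 3 chromosomes gave ratios of 1.41 (1.31 to 1.51), 1.14 (1.00 to 1.29) and 1.57 (1.40 to 1.76). Intervals of at least 5-fold over input made up 10.8% of the autosomal list, and the 366, 120 and 99 found here gave ratios of 1.14 (1.03 to 1.27), 1.02 (0.844 to 1.22) and 0.923 (0.750 to 1.12). The most enriched anti-HA intervals were thus spread over these chromosomes at close to the median autosomal density, while the weakest were 2.05 to 3.53 times as dense.

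HepG2 anti-HOXA13 had few strong intervals, 0.468% of the autosomal list. On chromosome 2 there were 25, of which 16 lay within 1 Mb of the longest stretch without an interval in any list, 92325951 to 95335666, which spans the centromere. Chromosome 16 held 47, or 6.71 times (4.93 to 8.92) as many per Mb as the median autosome, and 41 of them lay within 1 Mb of the corresponding stretch, 35284148 to 46385829. Without the bin from 46000001 to 47000000 chromosome 16 held 6. Chromosome 14 held 0 strong intervals among 3120, which allows a share of up to 0.118% (exact upper limit). Input was raised, that is the pileup expected from input exceeded 3 times the background of the list, at 23 of the 25 strong intervals on chromosome 2 and at 46 of the 47 on chromosome 16; its part in them was not tested. In Huh7 anti-HA, where 0.374% of autosomal intervals were strong, chromosome 16 held 13 (1.82%), 7 of them within 1 Mb of the same stretch and 9 with raised input, and without the same bin it held 6 (0.908%). Intervals of at least 5-fold were too few to describe outside HepG2 anti-HA. HepG2 anti-HOXA13 had 7, 0 and 5 of them on chromosomes 2, 14 and 16, against 0.0982% of its autosomal list. Huh7 anti-HOXA13 had 13, 1 and 5, against 2.01%, and Huh7 anti-HA had 1, 0 and 1, against 0.0741%.

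The intervals with the highest fold were taken from each list, with coordinates on GRCh37. All of the highest HepG2 anti-HA intervals exceeded 18-fold. On chromosome 14 the highest lay at 70180567 to 70181090 with 27.2-fold (22.99 to 31.98, from the Poisson error of the ChIP pileup), a pileup of 145 where 4.37 was expected, and none of the other 3 lists held an interval there. At 63267153 to 63267783 the fold was 26.8 (21.8 to 32.6), and a Huh7 anti-HA interval of 2.05-fold overlapped it. At 37882789 to 37883565, on the proximal side of the density break described below, it was 25.5 (21.9 to 29.4). On chromosome 2 the highest lay at 146526665 to 146527234 with 25.1-fold (21.2 to 29.5), at 63419646 to 63420626 with 24.5-fold (21.4 to 28.0) and 3.29-fold in Huh7 anti-HA, and at 201650962 to 201651596 with 23.4-fold (19.4 to 27.8). On chromosome 16 they lay on the long arm, at 77338556 to 77339239 with 20.4-fold (16.9 to 24.5), 54662528 to 54663228 with 18.8-fold (16.1 to 21.8) and 78218372 to 78218904 with 18.6-fold (15.5 to 21.99). None of these 9 regions overlapped an anti-HOXA13 interval of either line. Expected pileup just above 3 times the background lay under 2 of them, 63419646 to 63420626 on chromosome 2 and 54662528 to 54663228 on chromosome 16.

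The highest HepG2 anti-HOXA13 intervals were much lower, between 4.77-fold and 5.76-fold. The 3 highest on chromosome 16 lay close together beside the centromere, at 33866033 to 33866686 with 5.76-fold (4.12 to 7.85), 33865039 to 33865633 with 5.46-fold (3.87 to 7.51) and 33875593 to 33875799 with 5.28-fold (3.66 to 7.39). All 3 had raised input and overlapped HepG2 anti-HA intervals of 2.28-fold, 3.64-fold and 2.46-fold, and the first also a Huh7 anti-HOXA13 interval of 1.76-fold. The highest on chromosome 2, at 91601255 to 91601370 with 5.61-fold (3.96 to 7.74), also had raised input, whereas those at 240632733 to 240632855 with 5.16-fold (3.03 to 8.31) and 442375 to 442729 with 5.14-fold (2.91 to 8.52) did not. On chromosome 14 the highest were 30649377 to 30649508 and 90911873 to 90911979, both at 4.84-fold (2.79 to 7.90), and 30561910 to 30562104 at 4.77-fold (2.64 to 8.06). These 6 intervals on chromosomes 2 and 14 overlapped no interval of another list.

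In Huh7 anti-HOXA13 the highest interval was 11.8-fold (8.54 to 15.9) on chromosome 16, 3458609 to 3459025, where HepG2 anti-HOXA13 had 2.48-fold. Those on chromosomes 2 and 14 reached 7.99-fold (5.61 to 11.1) at 156261213 to 156261574 and 5.46-fold (3.38 to 8.41) at 68176972 to 68177280, with no interval in another list. In Huh7 anti-HA the highest intervals each overlapped one in HepG2 anti-HA. They stood at 5.59-fold (3.94 to 7.72) on chromosome 2, 145222361 to 145222663, with 3.56-fold in HepG2, at 4.85-fold (2.98 to 7.51) on chromosome 14, 85109941 to 85110138, with 13.3-fold in HepG2, and at 5.33-fold (3.52 to 7.77) on chromosome 16, 88772779 to 88773048, with 4.56-fold in HepG2.

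Along chromosome 14, both HepG2 lists dropped at the same place. Each list was divided on its own into segments of different density, and in each HepG2 list the division fell at 44 Mb. A division had to raise the log-likelihood by at least 8 after scaling for dispersion (its gain), and bin counts above 3 times the median were capped at that value. Each division was placed where this gain was largest in its own list. A ratio across a division, in the list that set it, therefore lies away from 1 by construction. Its interval leaves out that choice and the variation between bins beyond counting error. With anti-HOXA13 the 25 Mb on the centromeric side (proximal) held 75.8 intervals per Mb and the 64 Mb on the other side (distal) 19.1 per Mb, a ratio of 3.96 (3.68 to 4.26). In HepG2 anti-HA they held 30.1 and 10.1 per Mb, a ratio of 2.98 (2.68 to 3.32). Set against the median autosome, the proximal side stood at 3.67 times and 3.14 times, and the distal side at 0.926 times and 1.05 times, in the same order. The density of chromosome 14 above the median autosome in HepG2 was therefore carried by its proximal 25 Mb.

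The drop was sharp. In the 4 bins before 44 Mb, HepG2 anti-HOXA13 held 116, 121, 93 and 93 summits, and in the 4 bins after it 18, 12, 13 and 9. HepG2 anti-HA held 35, 29, 38 and 50 before and 9, 5, 1 and 2 after. In steps of 10 kb, the position that best divided the 5 Mb on each side was 43800000 in HepG2 anti-HOXA13 and 43880000 in HepG2 anti-HA. In the 500 kb just before these positions the lists held 53 and 38 summits, and in the 500 kb just after 3 and 5.

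In HepG2 anti-HOXA13, proximal bins ranged from 3 to 161 summits with a median of 75, and distal bins from 5 to 55 with a median of 18. Of the 25 proximal bins, 16 lay above every distal bin, and the 2 sides overlapped in the others. In HepG2 anti-HA, proximal bins ranged from 17 to 52 with a median of 27, distal bins from 0 to 34 with a median of 10, and 7 proximal bins lay above every distal bin. A further change at 91 Mb was found only in HepG2 anti-HOXA13, from 15.8 to 28.5 intervals per Mb, where HepG2 anti-HA held 10.1 and 10.0 per Mb. This division was lost with no cap on the bin counts and at a gain of 16.

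**Figure D2:**
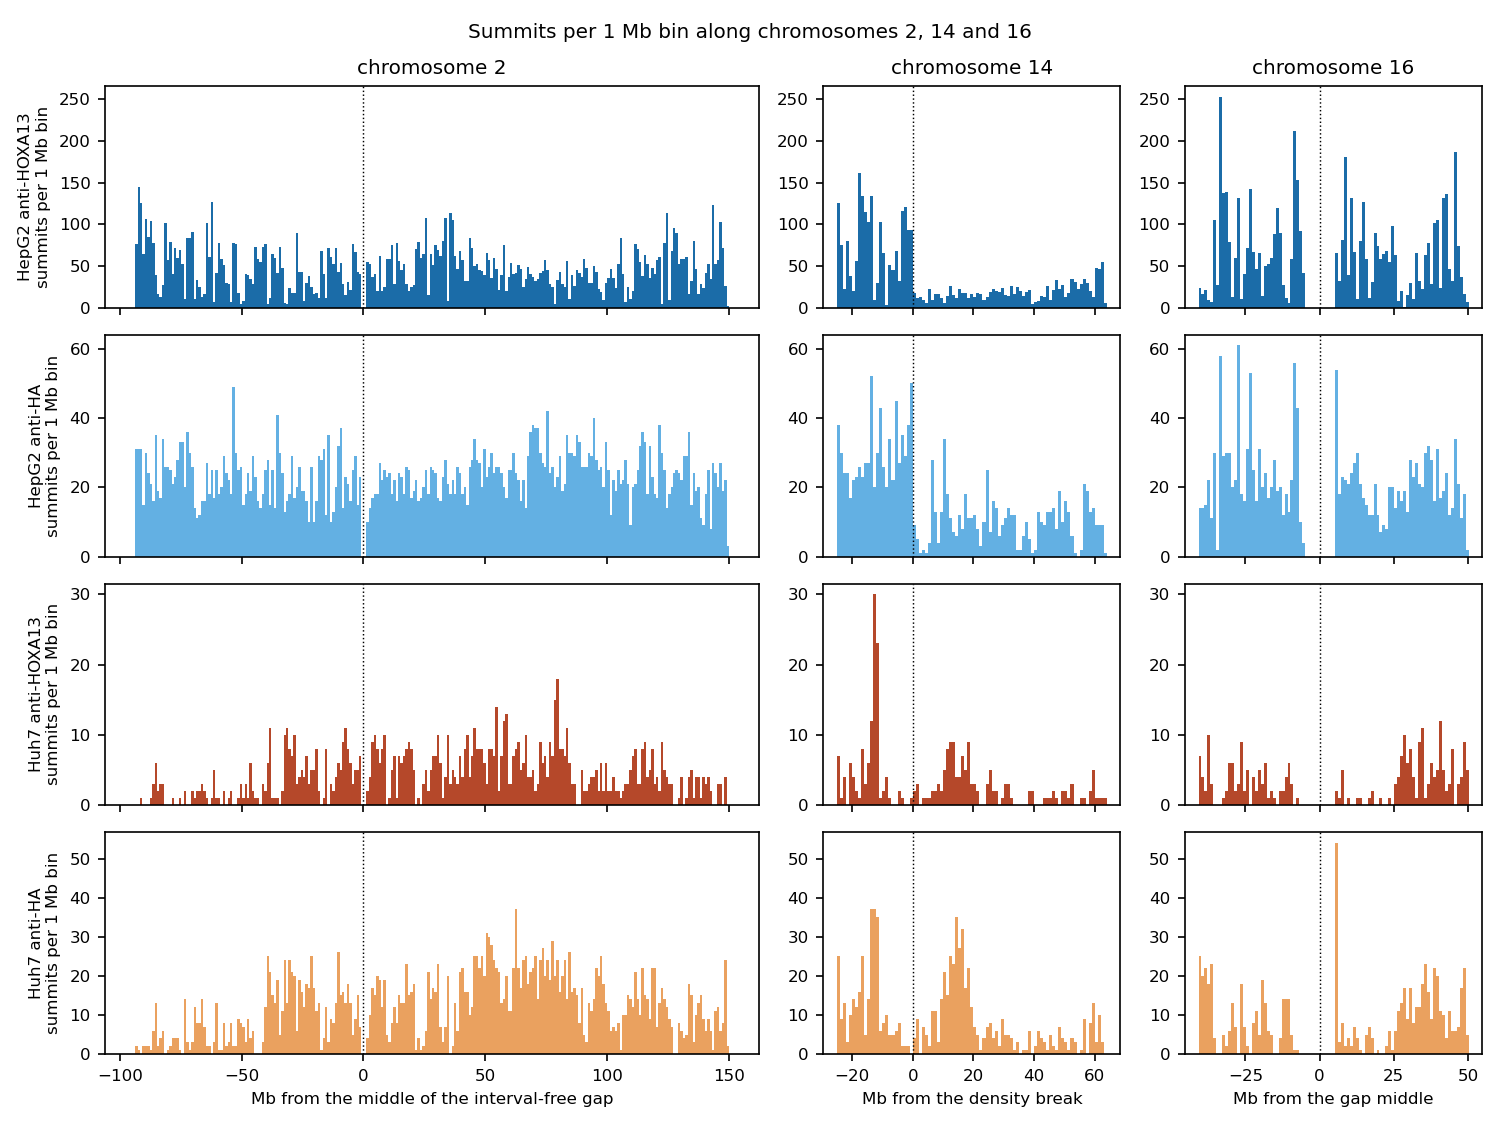
Summits per 1 Mb bin (y axis, own scale for each list) along chromosomes 2, 14 and 16 in the 4 lists; the x axis is the distance in Mb from the middle of the interval-free stretch on chromosomes 2 and 16 and from the density break on chromosome 14, marked by dotted lines. On chromosome 14 both HepG2 lists step down at the break, from 75.8 to 19.1 and from 30.1 to 10.1 intervals per Mb. The fullest Huh7 bins of this chromosome are also proximal, from 31000001 to 32000000 in anti-HOXA13 and from 30000001 to 32000000 in anti-HA. The bin from 30000001 to 31000000 is the fullest of HepG2 anti-HA as well.

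The step on chromosome 14 differed with the strength of the intervals and between the antibodies. In HepG2 anti-HA the proximal to distal ratio was 4.85 (4.16 to 5.67) among intervals with q above 0.05, 1.77 (1.51 to 2.08) among those with q of 0.05 or lower, 1.26 (0.955 to 1.66) among strong intervals and 1.14 (0.753 to 1.70) among those of at least 5-fold. The last 2 intervals of error include 1. The numbers behind the last ratio were 37 proximal and 83 distal intervals. In HepG2 anti-HOXA13 the order was the opposite, with 3.77 (3.49 to 4.06) for q above 0.05 and 6.93 (5.29 to 9.16) for q of 0.05 or lower, from 203 proximal and 75 distal intervals.

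The pileup expected from input, at the called intervals, differed across the same position. It is known only at those intervals, so input over the rest of each side was not measured. The share of intervals whose expected pileup was at the list's background, to within 1%, was 51.9% (49.6 to 54.1%) proximal and 78.4% (76.0 to 80.7%) distal in HepG2 anti-HOXA13, against 65.9% on the other 19 autosomes. In HepG2 anti-HA the direction was the opposite, 30.2% (26.9 to 33.6%) proximal and 17.1% (14.2 to 20.2%) distal, against 20.3%. The step was also present among the intervals at background alone, at 2.62 (2.39 to 2.87) in HepG2 anti-HOXA13 and 5.28 (4.19 to 6.70) in HepG2 anti-HA, and without intervals of raised input, at 3.98 (3.70 to 4.28) and 3.18 (2.84 to 3.57).

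**Figure D3:**
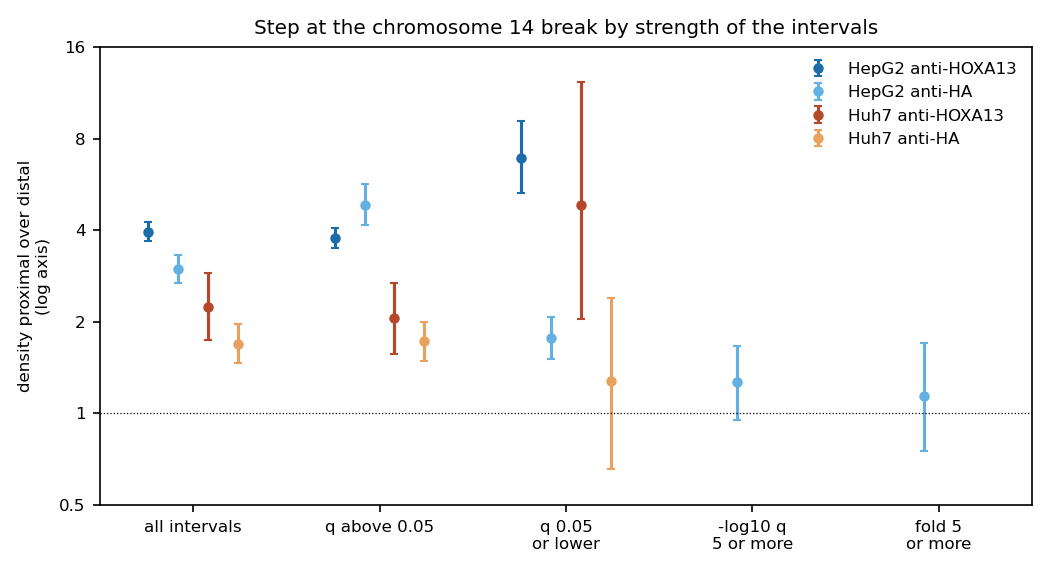
Density proximal of the chromosome 14 break divided by density distal of it (log axis) for classes of intervals (x axis), with 95% counting intervals; classes with fewer than 5 intervals on either side are left out. In HepG2 anti-HA the ratio goes from 4.85 among intervals with q above 0.05 to 1.14 among those of at least 5-fold, and in HepG2 anti-HOXA13 it is 3.77 and 6.93 in the 2 classes of q.

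In Huh7 no division fell at 44 Mb. The Huh7 lists were divided further along, at 72 Mb in anti-HOXA13 and 65 Mb in anti-HA. Huh7 anti-HOXA13 was not divided on chromosome 14 without intervals of raised input or among those with q above 0.05, and with no cap on the bin counts it was divided at 27, 33, 54 and 72 Mb. Across 44 Mb, Huh7 anti-HOXA13 held 4.76 and 2.13 intervals per Mb, a ratio of 2.24 (1.74 to 2.89), and Huh7 anti-HA 12.4 and 7.30, a ratio of 1.69 (1.46 to 1.96). Without intervals of raised input these ratios were 0.807 (0.554 to 1.15) and 1.04 (0.872 to 1.24), and both intervals of error include 1.

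The Huh7 intervals with raised input on proximal chromosome 14 came mainly from 4 adjacent bins, 29000001 to 33000000. There 70 of 71 Huh7 anti-HOXA13 intervals and 116 of 123 Huh7 anti-HA intervals had raised input, out of 78 and 126 on the whole proximal side. By bin, the median expected pileup was 3.88, 4.73, 10.9 and 19.1 times the background in Huh7 anti-HOXA13 and 4.02, 4.36, 8.03 and 18.1 times in Huh7 anti-HA. In the next bin, from 33000001, it was 1.18 and 1.19 times, from only 1 and 6 intervals. The first interval with raised input in these bins started at 29790448 in anti-HOXA13 and 29780683 in anti-HA, and the last ended at 32628195 and 32672930. The 2 Huh7 lists were called against separate inputs. Without these 4 bins the Huh7 ratios across 44 Mb were 1.08 (0.757 to 1.51) and 1.21 (1.02 to 1.44), and the HepG2 ratios 4.03 (3.74 to 4.34) and 2.94 (2.63 to 3.29). In HepG2 only 2 of 276 anti-HOXA13 and 15 of 129 anti-HA intervals in these bins had raised input. The median fold of the Huh7 intervals there was 1.78 in anti-HOXA13 and 1.79 in anti-HA, and 8 of the 9 strong Huh7 anti-HOXA13 intervals of chromosome 14 (3.53% of its 255, against 2.6% over all autosomes) lay in this stretch.

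**Figure D4:**
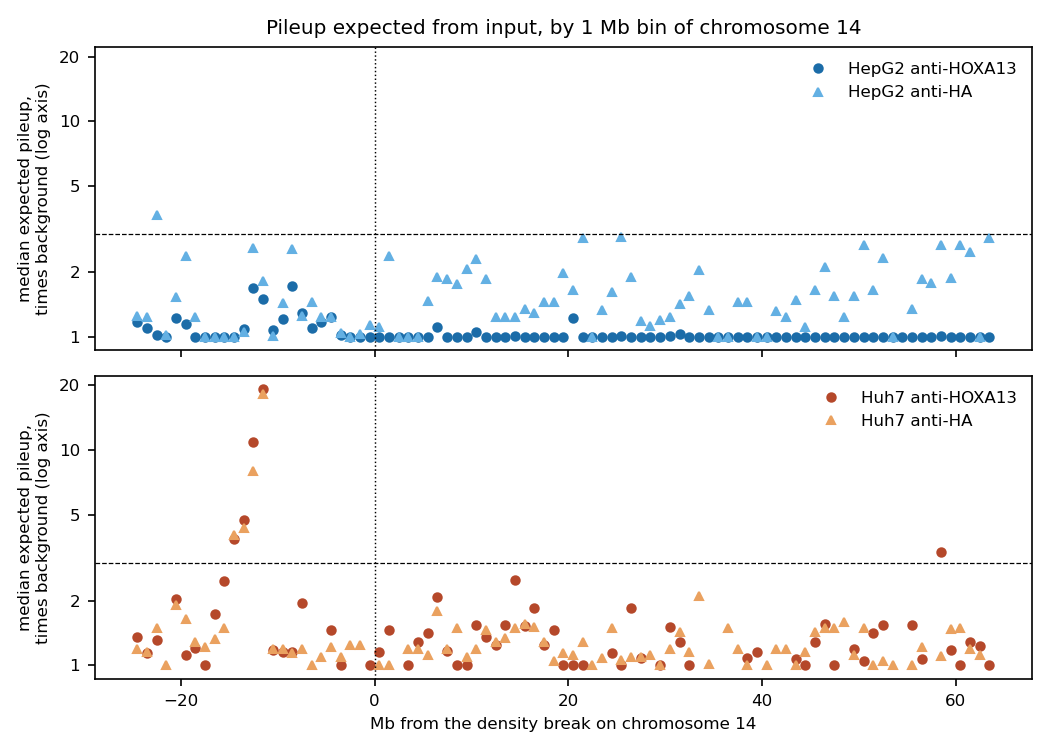
Median pileup expected from input at the intervals of each 1 Mb bin of chromosome 14, as a multiple of the list's background (log axis), against distance from the density break in Mb; the dashed line marks 3 times, above which input is called raised. In Huh7 the medians climb to 19.1 and 18.1 times 11 to 12 Mb before the break, while HepG2 stays below 3 times in that stretch. In the next bin the Huh7 values are 1.18 and 1.19 times, from only 1 and 6 intervals.

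On chromosome 2 the HepG2 density was nearly the same on both arms. In HepG2 anti-HOXA13 the short arm held 48.6 and the long arm 47.4 intervals per Mb, a ratio of 1.03 (0.988 to 1.07), and in HepG2 anti-HA 22.8 and 23.6, a ratio of 0.964 (0.913 to 1.02). In Huh7 the short arm held fewer, 2.90 against 5.00 per Mb in anti-HOXA13, a ratio of 0.581 (0.503 to 0.668), and 8.46 against 14.3 in anti-HA, a ratio of 0.590 (0.543 to 0.641). HepG2 anti-HA was not divided along chromosome 2, except without intervals of raised input, when it was divided at 137 and 231 Mb. HepG2 anti-HOXA13 was divided once, at 8 Mb, with 98.0 intervals per Mb before and 46.2 after, a ratio of 2.12 (1.97 to 2.28). Across that position HepG2 anti-HA held 24.9 and 23.3 per Mb, a ratio of 1.07 (0.924 to 1.23). The Huh7 lists were sparse there, with 5 and 16 intervals in the 8 Mb, and ratios of 0.145 (0.0469 to 0.339) and 0.161 (0.0919 to 0.262).

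The Huh7 lists were divided at 54 and 179 Mb in anti-HOXA13 and at 53, 133, 179 and 219 Mb in anti-HA. The first 53 Mb held 1.34 intervals per Mb by the HOXA13 antibody and 4.21 by the HA antibody, and the following 78 Mb held 5.08 and 12.7. HepG2 held 55.7 and 47.0 per Mb in these stretches by the HOXA13 antibody, and 23.6 and 21.3 by the HA antibody. Of the stretches between divisions, Huh7 was densest between 133 and 179 Mb, at 7.37 and 21.2 per Mb, where the HepG2 lists held 42.6 and 26.0 per Mb.

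Chromosome 16 was dense in HepG2 on both arms and unevenly so from bin to bin. In HepG2 anti-HOXA13 the short arm held 70.6 and the long arm 61.4 intervals per Mb, a ratio of 1.15 (1.09 to 1.22), and in HepG2 anti-HA 24.3 and 20.04, a ratio of 1.21 (1.10 to 1.33). The Huh7 ratios were 0.872 (0.673 to 1.13) and 0.863 (0.741 to 1.00). Neither HepG2 list was divided along chromosome 16. Expected pileup at the called intervals differed between the arms in HepG2: 28.9% (27.1 to 30.7%) of short arm and 61.4% (59.6 to 63.3%) of long arm intervals lay at background in anti-HOXA13, and 11.0% (8.99 to 13.2%) and 23.1% (20.3 to 25.9%) in anti-HA. The corresponding shares on chromosome 2 were 48.2% and 48.0% in anti-HOXA13 and 23.2% and 23.5% in anti-HA. The part of input in the density of the short arm of chromosome 16 was not tested.

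The Huh7 lists were divided on chromosome 16 at 32 and 67 Mb in anti-HOXA13 and at 5 and 67 Mb in anti-HA. From 32 to 67 Mb Huh7 anti-HOXA13 held 20 intervals in 25 covered Mb, 0.800 per Mb, where HepG2 anti-HOXA13 held 79.5 per Mb, more than before it (63.9) or after it (53.1). In the first 5 Mb, Huh7 anti-HA held 21.6 per Mb against 5.79 in the 52 Mb that followed, and Huh7 anti-HOXA13 5.20 against 1.87. There HepG2 anti-HA held 15.2 against 23.2, and HepG2 anti-HOXA13 15.6 against 76.0. The lists differ in size, so these densities do not rank the lines. By the HOXA13 antibody the median autosome held 20.7 per Mb for HepG2 and 3.62 for Huh7. HepG2 thus lay below its median in these 5 Mb and Huh7 above its own. By the HA antibody the medians were 9.57 and 10.6 per Mb, and both lines lay above them. The Huh7 anti-HA divisions at 5 and 67 Mb were both lost with bins of 2 Mb and at a gain of 16, and that at 5 Mb moved to 31 Mb with segments of at least 10 bins.

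The fullest bins of both HepG2 lists on chromosome 16, and those of HepG2 anti-HOXA13 on chromosome 2, were mostly below the median in Huh7. The median Huh7 bin held 2 (anti-HOXA13) and 6 (anti-HA) summits on chromosome 16, and 3.5 and 12 on chromosome 2. The medians on chromosome 16 are low, and 19 and 12 of its 81 bins were empty. Its bin from 86000001 to 87000000 was at the anti-HA median, and that from 13000001 to 14000000 above the anti-HOXA13 median. On chromosome 16 the bin from 7000001 to 8000000 held 253 anti-HOXA13 and 58 anti-HA summits in HepG2, and 0 in each Huh7 list. The bin from 32000001 to 33000000 held 212, 56, 0 and 1, the bin from 86000001 to 87000000 held 187, 34, 0 and 6, and the bin from 13000001 to 14000000, the fullest of HepG2 anti-HA, held 131, 61, 3 and 0, in the same order. The fullest HepG2 anti-HOXA13 bins of chromosome 2, from 1000001 to 3000000 and from 31000001 to 32000000, held 145, 126 and 127 summits, with 31, 31 and 25 in HepG2 anti-HA and at most 1 in a Huh7 list.

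The fullest HepG2 anti-HA bins on chromosome 2 were less extreme. They held 49 from 40000001 to 41000000, 42 from 169000001 to 170000000 and 41 from 58000001 to 59000000, and Huh7 anti-HA held 2, 24 and 19 there, where its median bin on chromosome 2 held 12. On chromosome 14 all of the fullest HepG2 bins were proximal. The bins from 26000001 to 28000000 held 161 and 134 summits in HepG2 anti-HOXA13, 26 and 23 in HepG2 anti-HA, and 16 and 25 in Huh7 anti-HA. The bin from 30000001 to 31000000 held 134, 52, 12 and 37 in the 4 lists, its Huh7 intervals lying in the stretch of raised input. The bin next to the break, from 43000001 to 44000000, held 93, 50, 1 and 0.

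Bin counts varied more in HepG2 anti-HOXA13 than in HepG2 anti-HA. The variance of the bin counts over their mean was 15.3 on chromosome 2, 36.0 on chromosome 14 and 40.9 on chromosome 16 in HepG2 anti-HOXA13, and 2.12, 8.84 and 6.22 in HepG2 anti-HA. Bins of chromosome 2 ranged from 2 to 145 summits with a median of 44.5 in the former and from 3 to 49 with a median of 24 in the latter. The variance over the mean rises with the number of intervals, which differs between the lists. After subtracting the variance of Poisson counts and dividing by the square of the mean, which removes that dependence, the values were 0.299, 0.998 and 0.609 in HepG2 anti-HOXA13 and 0.0479, 0.4998 and 0.238 in HepG2 anti-HA on chromosomes 2, 14 and 16, higher in the former on each of the 3.

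Across bins, HepG2 anti-HOXA13 ran against Huh7 anti-HA on chromosomes 2 and 16. Spearman's rho was -0.46 over the 242 bins of chromosome 2, -0.56 over the 81 of chromosome 16 and 0.0035 over the 89 of chromosome 14, where the other 19 autosomes ranged from -0.58 to 0.27 with a median of -0.082. These lists differ in both line and antibody. With the HOXA13 antibody in both lines, rho was -0.39, -0.090 and -0.56 on chromosomes 2, 14 and 16. With the HA antibody in both lines it was 0.073, 0.39 and -0.069, so the opposition was not seen there. The medians of the other 19 autosomes were -0.043 and 0.38. The Huh7 lists followed each other, with rho of 0.73, 0.75 and 0.69 on chromosomes 2, 14 and 16. On the other 19 autosomes this pair ranged from 0.35 to 0.81 with a median of 0.65. The HepG2 lists followed each other less, with 0.20, 0.47 and 0.51, where the other 19 ranged from -0.24 to 0.78 with a median of 0.23. On chromosome 14 the value over all bins includes the step at 44 Mb, and within the sides rho was 0.53 over the 25 proximal bins and -0.0011 over the 64 distal bins. Neighbouring bins share chromatin state, mappability and base composition and are not independent, so these values are descriptions.

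**Figure D5:**
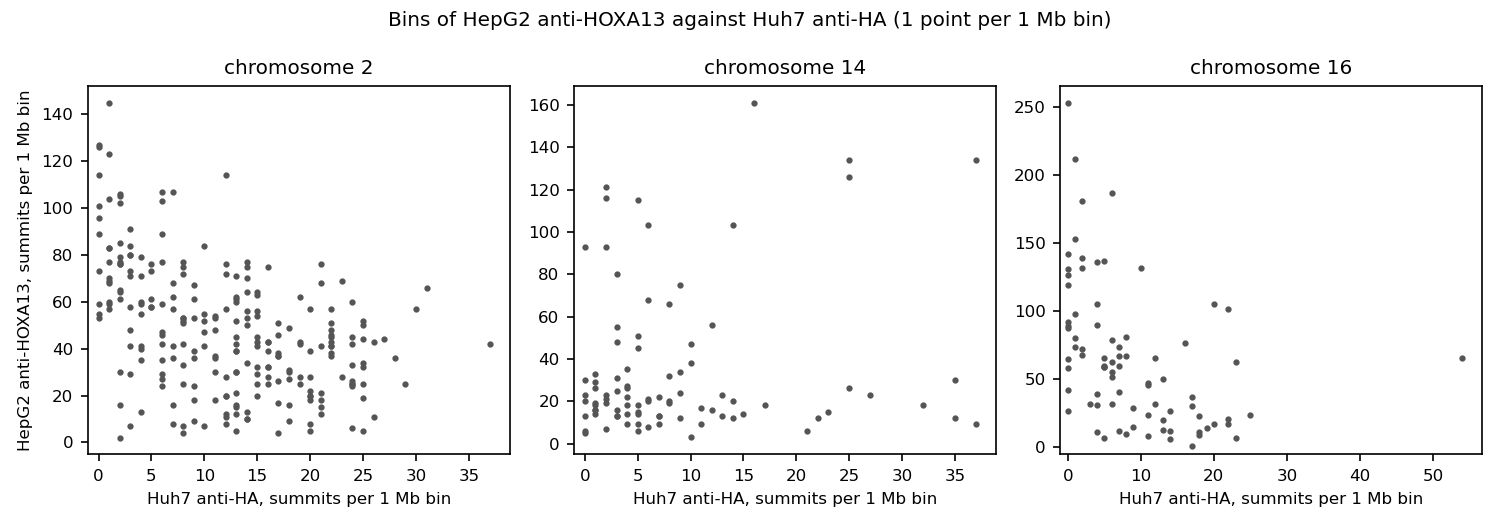
Summits per 1 Mb bin in HepG2 anti-HOXA13 (y axis) against Huh7 anti-HA (x axis) on chromosomes 2, 14 and 16, with 1 point per bin. On chromosomes 2 and 16 most of the fullest HepG2 anti-HOXA13 bins have few Huh7 anti-HA summits, with rho of -0.46 and -0.56. On chromosome 14 there is no common trend, with rho of 0.0035. The lists differ in both line and antibody. With the HA antibody in both lines, rho is 0.073, 0.39 and -0.069 on chromosomes 2, 14 and 16.

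Bins poor in HepG2 anti-HOXA13 summits tended to have a high expected pileup in HepG2 anti-HA. Over bins with at least 5 anti-HA intervals, rho between the number of HepG2 anti-HOXA13 summits and the median expected pileup of HepG2 anti-HA was -0.74 on chromosome 2 (241 bins), -0.50 on chromosome 14 (75 bins) and -0.72 on chromosome 16 (78 bins). These ranked 2, 6 and 3 from the lowest of 22 autosomes. Proximal chromosome 14 shows the range: the bin from 26000001 to 27000000 held 161 anti-HOXA13 summits and 0 of its 26 anti-HA intervals had raised input, while the bin from 35000001 to 36000000 held 3 anti-HOXA13 summits and 8 of its 20 anti-HA intervals had raised input.

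Few intervals coincided between lists. With a minimum overlap of 1 bp, 377 of 8814 HepG2 anti-HA intervals on the 3 chromosomes (4.28%, 3.86 to 4.72%) overlapped a HepG2 anti-HOXA13 interval, against 4.23% (3.98 to 4.48%) on the other 19 autosomes, and 379 of 20014 HepG2 anti-HOXA13 intervals (1.89%, 1.71 to 2.09%) overlapped an anti-HA interval, against 2.10%. By chromosome the share of anti-HA was 3.63% on 2, 3.08% on 14 and 7.26% on 16. The share on chromosome 16 fell to 89 of 1722 (5.17%, 4.17 to 6.32%) without its bin from 46000001 to 47000000. That bin lies next to the longest interval-free stretch of the chromosome. The interval of error of the lower share includes the 4.23% of the other 19 autosomes. On chromosome 14, 40 of 752 proximal anti-HA intervals (5.32%, 3.83 to 7.17%) and 3 of 645 distal ones (0.465%, 0.0960 to 1.35%) overlapped; the proximal side also held the most intervals to overlap with.

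Between the lines, 453 of 4415 Huh7 anti-HA intervals (10.3%, 9.38 to 11.2%) overlapped a HepG2 anti-HA interval, against 8.43% (8.08 to 8.79%) on the other autosomes, and 409 of the 8814 HepG2 anti-HA intervals (4.64%, 4.21 to 5.10%) overlapped one in Huh7, against 7.80% (7.47 to 8.14%). Over the 3 chromosomes together, the share of the Huh7 list was thus above, and that of the HepG2 list below, its value on the other autosomes. By chromosome, the share of the Huh7 list was 7.49% (6.56 to 8.50%) on 2 and 9.92% (7.91 to 12.2%) on 14. The first lay below the value on the other autosomes, and the interval of the second includes it. Chromosome 16 had the highest share of the 3, with 157 of 715 (21.96%, 18.97 to 25.2%). Its bin from 46000001 to 47000000, next to the interval-free stretch, held 54 Huh7 anti-HA intervals, 51 with raised input. Without that bin the share was 105 of 661 (15.9%, 13.2 to 18.9%). With anti-HOXA13, 45 of 1523 Huh7 intervals (2.95%, 2.16 to 3.93%) overlapped a HepG2 interval, against 2.30% (1.9997 to 2.64%), and 45 of the 20014 HepG2 intervals (0.225%, 0.164 to 0.301%) a Huh7 interval, against 0.402% (0.349 to 0.460%). Within Huh7 the antibodies shared 21 overlaps, 1.38% (0.856 to 2.10%) of anti-HOXA13 and 0.476% (0.295 to 0.726%) of anti-HA intervals, against 1.81% and 0.660% on the other autosomes.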

How the data were processed

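ChIP-seq interval lists from 4 libraries, each called against its own input, were used as deposited. The submitters' processing notes name BWA, MACS2 and GRCh38, without versions or settings. The sequence names (a decoy and GL000 contigs) are those of GRCh37, and 72, 9 and 6 intervals on chromosomes 2, 14 and 16 end beyond the last GRCh38 gene, so coordinates are given as GRCh37, 1-based, none was converted, and no gene or sequence is printed.

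The deposited fold is a ratio of ChIP to expected pileup at the summit, with 1 added to each, by MACS2's published formula. The authors' significance values are −log10 p and −log10 q-value, with p of 0.01 as the limit. The deposited score was not used further, and the last deposited column is the distance of the summit from the interval start in bp. From fold and p, the ChIP and expected pileups were solved for at least 99.99% of autosomal intervals. The background is the list's fixed lowest expected pileup, 1.73 (anti-HOXA13) and 2.62 (anti-HA) in HepG2, and 2.60 and 2.61 in Huh7. The Huh7 anti-HOXA13 ChIP pileup was scaled by 0.812. The read depth behind a value is not in the lists.

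Bins of 1 Mb took each interval by its summit. Each list was divided by binary segmentation of Poisson counts, with a log-likelihood gain over dispersion of at least 8, segments of at least 5 bins and bins capped at 3 times the median. Densities carry exact Poisson, ratios across a position exact conditional, and shares Clopper-Pearson 95% intervals. The scripts were tested on simulated data. Named regions are the 3 highest folds per chromosome in each HepG2 list and the highest in each Huh7 list, the 3 fullest bins of each HepG2 list, and every division; bins from 29 to 33 Mb and at 35 Mb of chromosome 14, and at 46 Mb of chromosome 16, were named after their values were seen. The chromosomes, classes and rules were chosen with earlier results of these data known. Alternatives changed the threshold, raised input, length, joining, bin size, segmentation and overlap. The work used scipy 1.17.1, pandas 2.3.3 and numpy 2.4.6 under Python 3.11.15; figures used matplotlib 3.10.9.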

Additional observations from a re-analysis of the deposited data

Results flagged for a closer look

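At 3 of the 7 positions where the Huh7 anti-HA list was divided, both Huh7 lists changed in one direction and both HepG2 lists in the other. Ratios were taken over the stretches between the divisions of that list. The difference between the lines was not tested, since each condition has 1 library. The positions were set by the Huh7 anti-HA list, so its own ratios lie away from 1 by construction. On chromosome 2 the density before 53 Mb over that after it was 0.264 (0.202 to 0.340, anti-HOXA13) and 0.331 (0.285 to 0.383, anti-HA) in Huh7, and 1.18 (1.13 to 1.24) and 1.11 (1.03 to 1.19) in HepG2. On chromosome 16 the ratio at 5 Mb was 2.79 (1.73 to 4.33) and 3.73 (2.97 to 4.66) in the Huh7 lists and 0.205 (0.162 to 0.257) and 0.656 (0.513 to 0.827) in the HepG2 lists, in the same order. At 67 Mb on chromosome 16 it was 0.344 (0.262 to 0.451) and 0.454 (0.386 to 0.534) in Huh7, and 1.43 (1.34 to 1.53) and 1.12 (1.01 to 1.25) in HepG2. The HepG2 anti-HA direction depended on the stretch compared. Over the stretches between the Huh7 anti-HOXA13 divisions it was 1.03 (0.960 to 1.10) at 54 Mb on chromosome 2 and 1.01 (0.890 to 1.14) at 67 Mb on chromosome 16. The divisions at 5 and 67 Mb on chromosome 16 were lost with bins of 2 Mb and at a gain of 16.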

How the results depend on the processing

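Both HepG2 lists kept a density above the median autosome on all 3 chromosomes under the 4 alternatives tried, and the division at 44 Mb on chromosome 14 was found in both under the 7 tried. At q of 0.05 or lower the ratios on chromosomes 2, 14 and 16 were 2.70, 1.79 and 4.49 in HepG2 anti-HOXA13 and 1.64, 1.34 and 1.66 in HepG2 anti-HA. The Huh7 ratios of chromosomes 2 and 16 crossed 1 there. Chromosome 2 stood at 0.856 (0.664 to 1.08) in anti-HOXA13 and 0.928 (0.784 to 1.09) in anti-HA. Chromosome 16 stood at 1.01 (0.669 to 1.48) and 1.56 (1.24 to 1.93), in the same order. Only the last of these intervals of error leaves out 1. The cause of the changes was not tested. Without raised input HepG2 anti-HA gave 2.55, 1.76 and 2.12, Huh7 anti-HOXA13 0.580 on chromosome 14 and Huh7 anti-HA 1.26 on chromosome 2. With length by the span of the chromosome, HepG2 anti-HOXA13 gave 2.70 on chromosome 2 and 3.33 on 16, HepG2 anti-HA 2.55, 1.43 and 2.16, and Huh7 anti-HA 1.27 on 2 and 0.766 on 14. Joining intervals within 1 kb gave, on chromosome 16, 2.92 for HepG2 anti-HOXA13 and 0.754 for Huh7 anti-HA. The other 24 alternative ratios moved by less than their counting interval.

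There were 3 (anti-HOXA13) and 1 (anti-HA) divisions in HepG2, and 5 and 7 in Huh7. A gain of 16 left 1 in HepG2 anti-HOXA13 and 3 in each Huh7 list. HepG2 anti-HA had 3 with bins of 0.5 Mb and 3 without raised input, Huh7 anti-HOXA13 had 9 with no cap, and Huh7 anti-HA had 11 with bins of 0.5 Mb. The division at 8 Mb on chromosome 2 in HepG2 anti-HOXA13 moved to 24 Mb with segments of at least 10 bins and was lost at a gain of 16, and the division at 91 Mb on chromosome 14 was lost at that gain and with no cap. With bins of 0.5 Mb HepG2 anti-HOXA13 was also divided at 5 Mb on chromosome 16.

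Overlaps fell with stricter rules. With at least 50% of both intervals shared they were 195 for HepG2 anti-HA with anti-HOXA13, 11 for the Huh7 pair, 20 for anti-HOXA13 and 197 for anti-HA between the lines. With both lists at q of 0.05 or lower they were 74, 0, 3 and 112. Without raised input they were 26 for anti-HOXA13 and 134 for anti-HA between the lines. Of the ratios across 44 Mb on chromosome 14, for which alternatives were chosen after seeing the data, that of Huh7 anti-HOXA13 turned to 0.807 without raised input. No paired analysis was possible because each condition has 1 library and no result comes from a test.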

Other observations

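Beside the longest interval-free stretch of chromosome 16, the bin from 46000001 to 47000000 had the pileup expected from input raised in all 4 lists. Its median was 27.3 times the background in HepG2 anti-HOXA13 over 66 intervals, 36.3 times in HepG2 anti-HA over 54, 15.4 times in Huh7 anti-HOXA13 over 2 and 53.1 times in Huh7 anti-HA over 54. On the other side of the interval-free stretch, the 2 bins from 34000001 to 36000000 held 92 and 42 HepG2 anti-HOXA13 intervals with 0 of raised input, and 0 Huh7 intervals in both lists.

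Across the 22 autosomes, which are not independent, interval density in HepG2 anti-HOXA13 went with a lower share of intervals at the input background, with Pearson's r of -0.80 and Spearman's rho of -0.84. Chromosomes 2, 14 and 16 ranked 4, 8 and 2 from the lowest share. The same relation in HepG2 anti-HA had r of -0.29 and rho of -0.56. It was not particular to HepG2: r was -0.64 and rho -0.79 in Huh7 anti-HOXA13, and r was -0.70 and rho -0.63 in Huh7 anti-HA. The points share a library and its input, and the relation was not tested.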
